A study of Macaca mulatta with 24 samples.

Results

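FGF11, FGF12, FGF13 and FGF14 are the intracellular fibroblast growth factors, and their mRNA was followed in each layer of the lateral geniculate nucleus (LGN), the thalamic relay between retina and visual cortex, of rhesus macaques with monocular deprivation. FGF11 was chosen by its lower signal in deprived parvocellular layers, known from earlier results of these arrays, and the other 3 genes were taken with it as the rest of its family. They are 4 of the 14132 gene symbols that the platform annotation assigns alone to a probe set. Together they have 10 of the 52766 probe sets of the array other than controls: 2 for FGF11, 3 for FGF12, 1 for FGF13 and 4 for FGF14. All 10 passed the filter, which asked that 1 array or more reach a signal of 100.

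Unlike the secreted fibroblast growth factors, the intracellular members carry no signal peptide for export and remain in the cell, mostly in neurons. They bind the cytoplasmic tail of voltage-gated sodium channels, are concentrated at the axon initial segment, where action potentials start, and alter how channels inactivate and where they sit. Some members also bind a scaffold of the JNK kinase pathway, and FGF13 binds microtubules.

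The 24 samples were 6 layers of 4 LGNs, both LGNs of 2 rhesus macaques whose left eye was deprived from birth. One animal wore an opaque contact lens for 2 months and the other had tarsorrhaphy, closure of the lids, for 4 months. Since deprivation began at birth, age, duration, method and animal cannot be told apart. Layers 1 and 2 are magnocellular, with large neurons, and layers 3 to 6 parvocellular, with small neurons; the deprived eye drives layers 2, 3 and 5 on its own side and layers 1, 4 and 6 on the opposite side. Parvocellular arrays thus numbered 16, of which 8 were deprived, and magnocellular arrays 8, of which 4 were deprived. The layers were taken by laser capture, without the koniocellular zones between them, the sections of a layer were pooled, and the RNA was amplified in 2 rounds before it was hybridized to the Rhesus Macaque Genome Array. Nondeprived layers lay in the same LGNs as deprived ones, and no untreated animal was analysed here. Signals are linear intensities in arbitrary units, and a signal of one probe set was not set against that of another.

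Of 6 relay neuron markers 3 had a probe set: TCF7L2 and PVALB had mean signals of 30946 and 22946 over the 24 arrays, and the glutamate transporter SLC17A7 had a mean of 15.6 and was not tested. The array of layer 2 (magnocellular, deprived) from the ipsilateral LGN at 2 months stood apart. Its GAPDH ratio, the signal of a 3' probe set over that of a 5' probe set and a gauge of RNA shortening, was 50.8 against 1.97 to 14.3 in the others, and its mean correlation with the other arrays was 0.837 against 0.882 to 0.908. The members' log2 differences with magnocellular deprivation and between layer classes are given with and without it, while correlations and values of other genes include it. Since the LGN is a block, a magnocellular deprivation difference without this array rests on the other 3 LGNs. Tests were made with limma on log2 signals with the LGN as a block, and the number of arrays limits their precision. Since only 2 animals were used, each p-value reflects how layers of these LGNs vary, not how animals vary.

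FGF11 was lower in deprived than in nondeprived parvocellular layers in both animals and in all 4 parvocellular layers, which is the pattern it was selected on. Its brighter probe set (MmuSTS.1939.1.S1_at) read 180 at the lowest, 326 at the median and 494 at the highest in the 8 deprived parvocellular arrays, a mean of 344 ± 97.7 (SD, n = 8 layers). In the 8 nondeprived parvocellular arrays it read 842 at the lowest, 1110 at the median and 1468 at the highest, a mean of 1135 ± 193 (SD, n = 8). The 2 groups did not overlap. Within an LGN the deprived layer was lower in 8 of 8 pairs of neighbouring layers (3 with 4, and 5 with 6), and the ratio of deprived to nondeprived signal ran from 0.175 to 0.418. The log2 difference was -1.76 (SE 0.15), a level 3.39-fold lower in deprived layers. Over all probe sets tested, 365 of 37623 or 0.97% passed the threshold in this comparison, and the brighter FGF11 probe set was the 1 member probe set of 10 among them; since FGF11 was picked from it, nothing is read from that count and no p is given. In tissue samples of this kind, fewer cells of a type and less RNA per cell cannot be told apart.

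The lower signal was seen in every parvocellular layer. Here and below, the first of a pair of values of a layer is from the animal deprived for 2 months and the second from the animal deprived for 4 months. In layer 3 the deprived arrays read 402 and 316 and the nondeprived arrays 1468 and 1030. In layer 4 they read 435 and 277 against 1054 and 1167, and in layer 5 they read 494 and 180 against 1312 and 842. In layer 6 they read 323 and 329 against 1180 and 1028, the closest pair of deprived arrays. The lowest nondeprived array, layer 5 of the contralateral LGN at 4 months, thus remained above the highest deprived array, layer 5 of the ipsilateral LGN at 2 months. The lowest value of all 24 arrays, 180, was that of layer 5 in the ipsilateral LGN at 4 months.

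**Figure D1:**
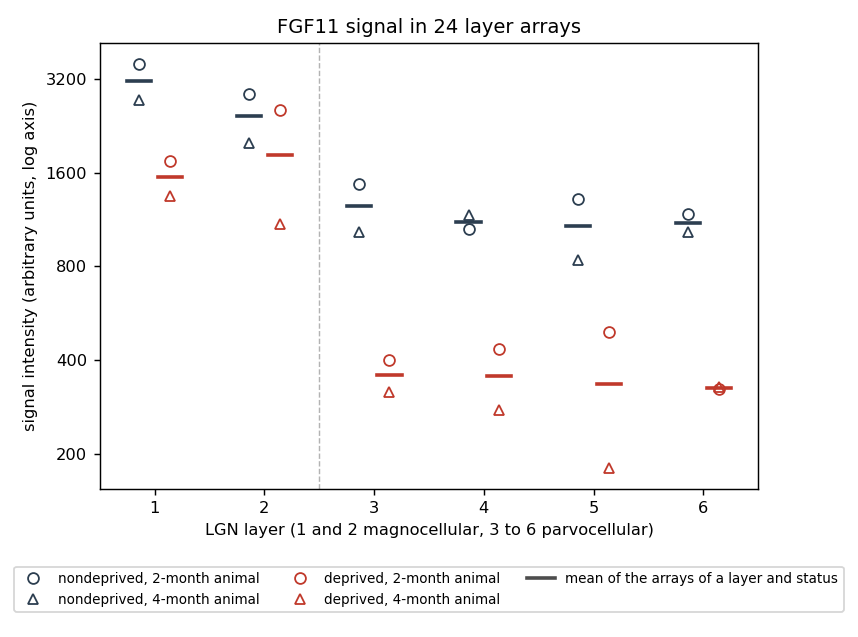
Signal of the brighter FGF11 probe set (arbitrary units, log axis) in each of 24 arrays by LGN layer. Circles are the animal deprived for 2 months and triangles the animal deprived for 4 months, red is deprived and dark blue nondeprived, and bars are means of the 2 arrays of a layer and status. Deprived layers 3 to 6 read 180 to 494 and nondeprived layers 3 to 6 read 842 to 1468; layers 1 and 2 read 1095 to 3575.

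The deprivation difference of FGF11 was -1.61 (SE 0.18) in the animal deprived for 2 months and -1.91 (SE 0.23) in the animal deprived for 4 months. The difference between the animals was -0.31 (SE 0.30, 95% interval -0.93 to 0.32, adjusted p = 0.973 from limma). Between outer layers (5 and 6) and inner layers (3 and 4) the deprivation effect differed by -0.06 (SE 0.31, 95% interval -0.70 to 0.59, adjusted p = 0.989), a value that was 0.04 after quantile normalization. Variation of the effect between animals or layers counts as spread in the comparison that picked FGF11. The small size of these 2 differences is thus not free of that choice, and nothing is read from it. In the 2 comparisons no member probe set and no other probe set passed the threshold, which is a background of 0% in each. At an unadjusted p under 0.05 limma had 1465 of 37623 probe sets for the 2 animals, none of them a member, and 1494 for outer and inner layers, 1 of them a member (FGF13).

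In magnocellular layers, whose arrays were not used in choosing the gene, FGF11 was also lower in the deprived layer of each LGN, without passing the threshold. The deprived magnocellular arrays read 1746 and 1350 in layer 1 and 2546 and 1095 in layer 2, a mean of 1684 ± 634 (SD, n = 4 layers). The nondeprived magnocellular arrays read 3575 and 2729 in layer 1 and 2855 and 1994 in layer 2, a mean of 2788 ± 648 (SD, n = 4). The ranges of the groups overlapped, but within each LGN the deprived layer was the lower one, in 4 of 4 pairs, with ratios of 0.401 to 0.712. The log2 difference was -0.77 (SE 0.26, 95% interval -1.35 to -0.19), with an unadjusted p of 0.0143 and an adjusted p of 0.836 from limma. Without the array that stood apart it was -0.86 (SE 0.28), and with each array scaled to the same median it was -1.05. Over all alternatives of processing it ran from -1.05 to -0.60, and with one array left out from -0.86 to -0.59. It did not pass the threshold in any of them. Whether the effect differed between parvocellular and magnocellular layers was not tested, since the parvocellular difference had picked the gene.

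No probe set passed the threshold between deprived and nondeprived magnocellular layers, 0% of 37623, and no member did. At an unadjusted p under 0.05 limma had 2138 probe sets, 3 of them member probe sets: the brighter FGF11 probe set, FGF13 and 1 of FGF12. The median log2 difference of all probe sets was 0.13 in this comparison, and scaling every array to the same median moved it by -0.31.

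FGF11 was also lower in parvocellular than in magnocellular layers, and this difference was present in nondeprived layers alone. There the 8 parvocellular arrays read 842 to 1468 and the 4 magnocellular arrays 1994 to 3575, without overlap. The log2 difference between nondeprived parvocellular and magnocellular layers was -1.28 (SE 0.14, adjusted p = 0.00042 from limma), 2.44-fold lower in parvocellular layers, and FGF11 was the 1 member probe set of 10 called in that comparison, in which 1.25% of all probe sets were called. Nondeprived parvocellular arrays were the high side of the difference that picked the gene, so this p and this call are not independent of that choice. Over all 24 arrays, with deprived and nondeprived layers given equal weight, the difference was -1.78 (SE 0.13), and -1.71 without the array that stood apart. It was negative in each of the 4 LGNs, between -1.63 and -2.10. This value includes the deprived parvocellular arrays on which the gene was picked, so it is given as a description with no p.

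In that comparison of layer classes 3.6% of all probe sets were called, 846 higher and 509 lower in parvocellular layers, and 2 of the 10 member probe sets, the brighter one of FGF11 and 1 of FGF14. The FGF11 call is set in part by how the gene was picked, and nothing is read from it. Among nondeprived layers the mean signal of FGF11 was 3152 in layer 1, 2424 in layer 2, 1249 in layer 3, 1110.2 in layer 4, 1077 in layer 5 and 1104 in layer 6, with 2 arrays each. Layers 1 and 2 overlapped each other and so did layers 3 to 6. Outer and inner parvocellular layers differed by -0.15 (SE 0.15, adjusted p = 0.781), which was 0.13 with each array scaled to the same median. No probe set passed the threshold between outer and inner layers, 0% of 37623 and none of the members, while limma had 3377 at an unadjusted p under 0.05, 1 of them the dimmer FGF11 probe set (-0.57, SE 0.23, adjusted p = 0.521).

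The second FGF11 probe set (MmugDNA.21658.1.S1_at) was dim, with a signal of 100 or more in 19 of 24 arrays and a range of 57.2 to 432. Its groups overlapped in both layer classes. The log2 difference with deprivation was -0.38 (SE 0.26) in parvocellular layers, where the deprived layer was lower in 7 of 8 pairs, and -0.21 (SE 0.43, adjusted p = 0.946) in magnocellular layers, where it was lower in 2 of 4 pairs. Without the array that stood apart the latter was -0.07 (SE 0.48). Parvocellular layers differed from magnocellular layers by -0.35 (SE 0.23, adjusted p = 0.48), and by -0.36 without that array. The log2 signals of the 2 FGF11 probe sets correlated at 0.507 over the 24 arrays after the mean of each LGN was removed.

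FGF13, the member that also binds microtubules, had a higher mean signal in deprived parvocellular layers, opposite to FGF11, and was not among the probe sets called in that comparison. Its probe set (MmuSTS.4776.1.S1_at) read 2037 at the lowest, 3319 at the median and 4571 at the highest in deprived parvocellular arrays, a mean of 3322 ± 852 (SD, n = 8 layers). The nondeprived parvocellular arrays read 1207 at the lowest, 2099 at the median and 2972 at the highest, a mean of 2054 ± 586 (SD, n = 8). The ranges overlapped, while within the LGN the deprived layer was the higher one in 8 of 8 pairs, by ratios from 1.04 to 3.79. The log2 difference was 0.70 (SE 0.17), or 1.63-fold, in the contrast that picked FGF11, and it is given as a description.

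The size of this difference varied from pair to pair, and its difference between inner and outer layers did not pass the threshold. In layers 3 and 4 together the pair ratios were 2.05, 3.79, 1.19 and 1.91, and in layers 5 and 6 they were 1.11, 1.04, 1.23 and 1.99. The largest ratio came from the contralateral LGN at 4 months, where deprived layer 4 read 4571 and nondeprived layer 3 read 1207. Between outer and inner layers the effect of deprivation on FGF13 differed by -0.66 (SE 0.30, 95% interval -1.30 to -0.02), with an unadjusted p of 0.0446 and an adjusted p of 0.965. It was 0.43 (SE 0.16) in the animal deprived for 2 months and 0.98 (SE 0.27) in the animal deprived for 4 months, and the difference between them was 0.54 (SE 0.33, adjusted p = 0.973).

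**Figure D2:**
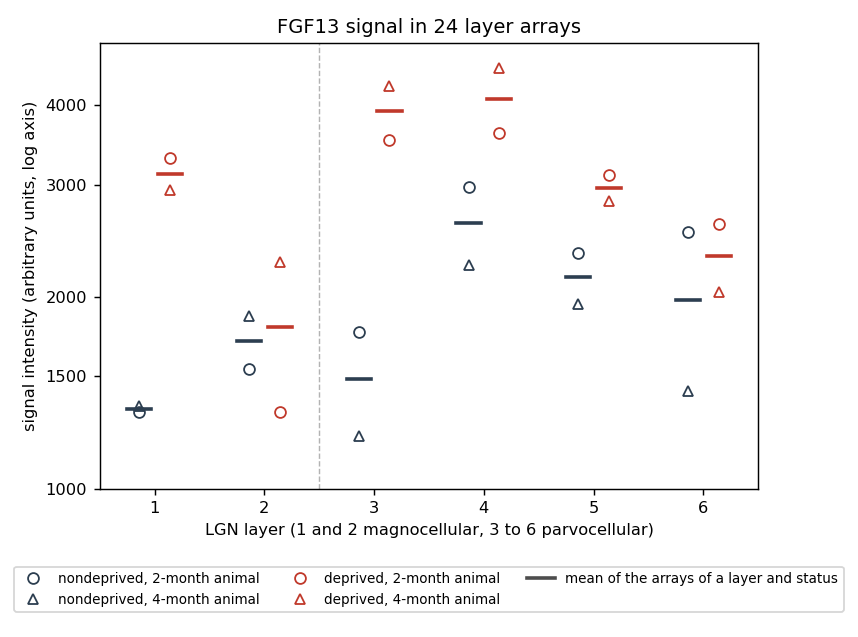
Signal of the FGF13 probe set (arbitrary units, log axis) in each of 24 arrays by LGN layer. Circles are the animal deprived for 2 months and triangles the animal deprived for 4 months, red is deprived and dark blue nondeprived, and bars are means of the 2 arrays of a layer and status. Means of deprived layers lie above those of nondeprived layers in all 6 layers, with 1792 against 1705 in layer 2.

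In magnocellular layers FGF13 read 3301 and 2939 in deprived layer 1 and 1318 and 2267 in deprived layer 2, a mean of 2456 ± 871 (SD, n = 4 layers). The nondeprived arrays read 1319 and 1349 in layer 1 and 1541 and 1868 in layer 2, a mean of 1519 ± 253 (SD, n = 4). The deprived layer was higher in 3 of 4 pairs, and the pair without a difference, 1318 against 1319, held the array that stood apart. The log2 difference was 0.63 (SE 0.27, 95% interval 0.02 to 1.23), with an unadjusted p of 0.0442 and an adjusted p of 0.836 from limma. Without the array that stood apart it was 0.83 (SE 0.27, adjusted p = 0.822), and after median scaling it was 0.34 (SE 0.42, adjusted p = 0.901). Parvocellular layers differed from magnocellular layers by 0.43 (SE 0.18, adjusted p = 0.204), by 0.27 (SE 0.16, adjusted p = 0.477) without the array that stood apart, and by 0.39 (SE 0.21, adjusted p = 0.475) among nondeprived layers. Outer parvocellular layers differed from inner ones by -0.28 (SE 0.17, adjusted p = 0.627).

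FGF12 had its brightest probe set (MmuSTS.1940.1.S1_at) between 4976 and 13370 in 23 arrays, and the array that stood apart read 2318. Deprived parvocellular arrays read 4976 to 10544, with a mean of 8302 ± 1986 (SD, n = 8 layers), and nondeprived ones 7476 to 12130, with a mean of 9886 ± 1725 (SD, n = 8). These ranges overlapped, and the deprived layer was lower in 7 of 8 pairs, with a log2 difference of -0.27 (SE 0.14). The exception was the pair of the contralateral LGN at 4 months with 10544 in deprived layer 4 and 7476 in nondeprived layer 3.

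In magnocellular layers the same FGF12 probe set differed with deprivation by -0.31 (SE 0.34, adjusted p = 0.888), and by 0.13 (SE 0.26, adjusted p = 0.959) without the array that stood apart. Between layer classes the difference was 0.12 (SE 0.21, 95% interval -0.32 to 0.55, adjusted p = 0.839). That value was -0.18 without the array that stood apart, so that no direction can be given.

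The second FGF12 probe set (MmugDNA.14803.1.S1_s_at), whose suffix on this platform marks probes shared by several transcripts, read 483 to 720 in parvocellular layers with deprivation and 554 to 923 in those without. The difference with deprivation was -0.24 (SE 0.12), with the deprived layer lower in 7 of 8 pairs. In magnocellular layers it read 838, 816, 379 and 560 in deprived and 861, 819, 1159 and 1046 in nondeprived arrays, lower in the deprived layer of 4 of 4 pairs. That log2 difference was -0.64 (SE 0.29, unadjusted p = 0.0484, adjusted p = 0.836 from limma), and without the array that stood apart it was -0.46 (SE 0.29). Parvocellular layers differed from magnocellular layers by -0.29 (SE 0.13, adjusted p = 0.281), and the difference passed the threshold without the array that stood apart, with -0.43 (SE 0.11, adjusted p = 0.0253).

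The dimmest FGF12 probe set (MmugDNA.11416.1.S1_at) ranged from 139 to 1191 and differed with deprivation by -0.37 (SE 0.23) in parvocellular and 0.22 (SE 0.32, adjusted p = 0.916) in magnocellular layers. The magnocellular value was -0.018 (SE 0.32) without the array that stood apart, so that it has no settled direction. Its difference between layer classes was -0.35 (SE 0.25, adjusted p = 0.525), and -0.46 (SE 0.26) without that array. The 3 FGF12 probe sets correlated at 0.379 to 0.614 over the 24 arrays after removing LGN means.

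FGF14, the member in which mutations cause an inherited ataxia, overlapped between deprived and nondeprived layers in all 4 of its probe sets. The brightest (MmugDNA.12760.1.S1_at) read 2022 to 4437 in parvocellular layers with deprivation and 2557 to 3896 in those without, means of 3430 ± 821 and 3233 ± 610 (SD, n = 8 layers each), and the groups overlapped. Its log2 difference was 0.07 (SE 0.11). In magnocellular layers it read 2664, 1794, 2348 and 4082 in deprived and 4180, 2402, 3353 and 1994 in nondeprived arrays, a difference of -0.14 (SE 0.30, adjusted p = 0.948). Without the array that stood apart, which read 2348, the difference turned to 0.094 (SE 0.29, adjusted p = 0.972). The deprived layer was lower in 3 of these 4 pairs. In the pair of the ipsilateral LGN at 4 months it was higher, with 4082 in layer 2 against 2402 in layer 1.

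The other 3 FGF14 probe sets had parvocellular differences of -0.0047 (SE 0.12), -0.14 (SE 0.17) and -0.11 (SE 0.23) with deprivation, each with the deprived layer lower in 4 of 8 pairs. In magnocellular layers their differences were 0.06 (SE 0.34), -0.14 (SE 0.42) and -0.78 (SE 0.70). In the last of these probe sets the array that stood apart read 9.14. Without that array the differences were 0.42 (SE 0.30), -0.45 (SE 0.44) and 0.25 (SE 0.43), so that the last turned its sign, and none passed the threshold with or without it.

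**Figure D3:**
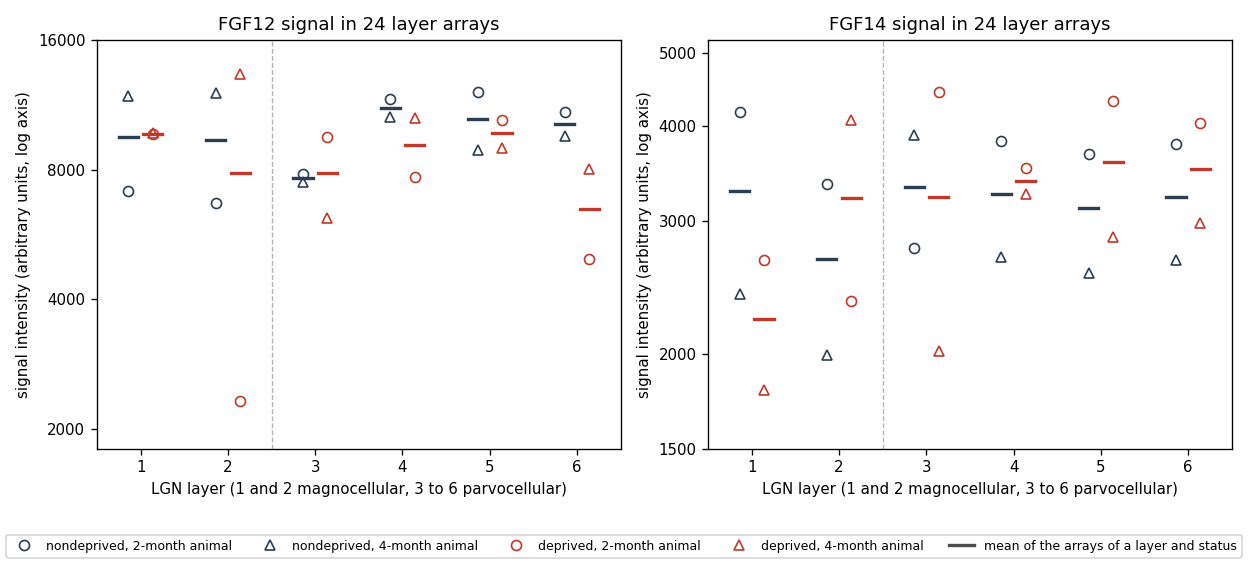
Signals of the brightest probe sets of FGF12 (left) and FGF14 (right), in arbitrary units on log axes, in each of 24 arrays by LGN layer. Circles are the animal deprived for 2 months and triangles the animal deprived for 4 months, red is deprived and dark blue nondeprived, and bars are means of the 2 arrays of a layer and status. Deprived and nondeprived arrays overlap in both genes, and the lowest FGF12 array at 2318 is the array that stood apart.

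Between layer classes, 1 dim FGF14 probe set (MmugDNA.27702.1.S1_at) was higher in parvocellular layers. It read 207 to 348 in the 8 deprived and 197 to 436 in the 8 nondeprived parvocellular arrays. The magnocellular arrays read 108 and 64 in deprived layer 1, 264 and 272 in deprived layer 2, 153 and 280 in nondeprived layer 1 and 142 and 121 in nondeprived layer 2. The classes overlapped through the magnocellular arrays above 197, which were those of the ipsilateral LGNs other than nondeprived layer 1 at 2 months. The log2 difference was 0.88 (SE 0.21, adjusted p = 0.0155 from limma), 1.84-fold, and it was positive in each of the 4 LGNs, from 0.07 to 1.89. The call was lost without 1 array, deprived magnocellular layer 1 of the contralateral LGN at 4 months, where the difference was 0.67 (adjusted p = 0.0541), and without the array that stood apart the difference was 1.02 (adjusted p = 0.00424). It did not pass among nondeprived layers alone, where it was also 0.88 (SE 0.25, adjusted p = 0.113).

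The remaining FGF14 probe sets were not called between layer classes. The brightest differed by 0.26 (SE 0.14, adjusted p = 0.371), the second brightest (MmugDNA.32572.1.S1_at) by -0.17 (SE 0.15, adjusted p = 0.639) and the dimmest (MmugDNA.26971.1.S1_at) by 1.04 (SE 0.34, adjusted p = 0.0919). Without the array that stood apart these were 0.17 (SE 0.14), -0.32 (SE 0.13) and 0.54 (SE 0.20), none past the threshold. Without the array of layer 2 (magnocellular, deprived) from the ipsilateral LGN at 4 months, where the brightest probe set read 4082, the brightest differed by 0.42 (adjusted p = 0.0285) and the dimmest by 1.27 (adjusted p = 0.0304), and both passed the threshold. The 4 probe sets of FGF14 did not move alike: over the 24 arrays, after removing LGN means, their pairwise correlations ran from -0.446 to 0.637.

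**Figure D4:**
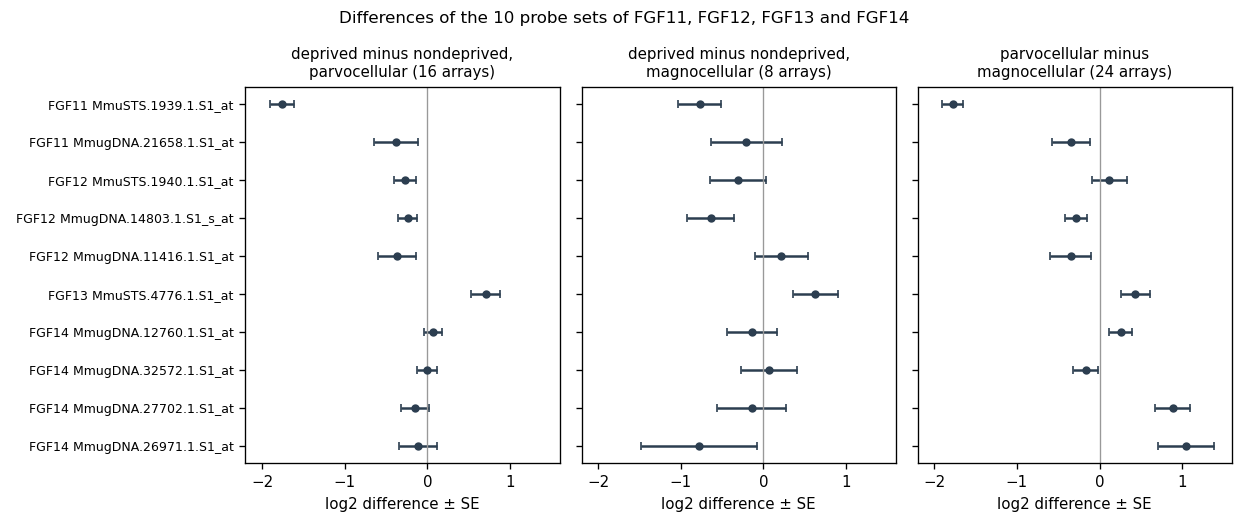
Log2 differences of the 10 probe sets with standard errors as bars, from limma with the LGN as a block. The left panel is deprived minus nondeprived parvocellular layers (16 arrays), the middle panel deprived minus nondeprived magnocellular layers (8 arrays) and the right panel parvocellular minus magnocellular layers (24 arrays). The brighter FGF11 probe set is at -1.76, -0.77 and -1.78 and FGF13 at 0.70, 0.63 and 0.43.

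Across the 24 arrays, and with the mean of each LGN removed, log2 signals of the brightest probe sets of FGF11 and FGF13 correlated at -0.709. FGF11 and FGF14 correlated at -0.361, FGF12 and FGF14 at 0.346 and FGF12 and FGF13 at 0.293. FGF11 with FGF12, and FGF13 with FGF14, were at 0.02 and 0.04. These values describe 24 arrays that share their LGNs and groups, and the deprived arrays that picked FGF11 are among them.

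The genes whose log2 signal followed each member most closely over the 24 arrays, by the same correlation among 9445 genes, were different for the 4 members. For FGF11 they were EPN1 (0.920), which encodes an endocytic adaptor, PIP5KL1 (0.916), TP53I3 (0.915), CRHBP (0.902), which binds corticotropin-releasing hormone, and CRYBA2 (0.898), while NASP (-0.906) and PAK5 (-0.896) ran most opposed. For FGF13 they were MMD (0.892), VAT1L (0.867), SLF2 (0.854), NAT8 (0.835) and RADX (0.832), and the glucose transporter gene SLC2A3 (-0.845) and TMEM268 (-0.836) were most opposed. FGF12 was followed by LRPPRC (0.949), a mitochondrial RNA-binding protein, ISCA1 (0.931), SLC30A9 (0.928), ERGIC2 (0.927) and ZFAND1 (0.920), and opposed by TCF20 (-0.891) and DYNC2I2 (-0.887). The array that stood apart is included and read FGF12 at 2318, the lowest value of that probe set. How far the FGF12 correlations rest on that array was not tested. The closest genes to FGF14 were PEG3 (0.811), RAB3GAP1 (0.795), ARCN1 (0.740), PDGFA (0.728) and LOC699779 (0.725), with CBX5 (-0.730) and SENP3 (-0.703) most opposed.

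EPN1 had log2 differences of -1.15 with deprivation in parvocellular layers, -0.38 in magnocellular layers and -1.39 between layer classes. CRHBP had -1.40, -1.08 and -1.31 in the same order. All 5 genes nearest to FGF11 had the sign of FGF11 in the 3 comparisons, which follows from how they were found.

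Subunits of voltage-gated sodium channels, whose pore-forming alpha subunits the intracellular factors bind, were measured by 7 tested genes of a list of 13. Between parvocellular and magnocellular layers 3 were higher and 1 lower in parvocellular layers, beside 3.6% called over all probe sets. SCN3B, an auxiliary beta subunit, was higher in parvocellular layers by 2.36 (SE 0.21, adjusted p = 1.36e-07), SCN2A by 1.38 (SE 0.18, adjusted p = 3.25e-05) and SCN3A by 0.60 (SE 0.15, adjusted p = 0.018). SCN1A was lower in parvocellular layers, at -0.38 (SE 0.10, adjusted p = 0.0406). With deprivation in parvocellular layers 0.97% of all probe sets were called. SCN3B was higher in deprived layers by 1.21 (SE 0.19, adjusted p = 0.00586 from limma), with means of 962 in nondeprived and 2149 in deprived layers. SCN2A differed by 0.50 (SE 0.12, adjusted p = 0.0512). None of the 7 passed with deprivation in magnocellular layers, nor did any other probe set. There SCN3B differed by 0.98 (SE 0.38) and SCN3A by 0.95 (SE 0.35), both with an adjusted p of 0.836 from limma. The median of the list was -0.18 between layer classes, beside -0.03 for all probe sets, and 0.41 with parvocellular deprivation, beside -0.01. This list and those below were chosen with earlier results of these data known. Their p-values and counts are thus not an independent test.

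Scaffold genes of the axon initial segment, 8 tested of 9, had none called in any of the 3 comparisons of deprivation and layer class. Over all probe sets 0.97% were called with parvocellular deprivation, 0% with magnocellular deprivation and 3.6% between layer classes. Nothing is thus read from the absence of calls in this short list. With parvocellular deprivation SPTBN1, a beta spectrin, differed by 0.50 (SE 0.14, adjusted p = 0.103) and ANK2 by -0.30 (SE 0.10, adjusted p = 0.177). SPTBN1 differed by 1.02 (SE 0.27, unadjusted p = 0.00376, adjusted p = 0.836) with magnocellular deprivation. ANK3, the ankyrin that anchors sodium channels at the segment, differed by -0.32 (SE 0.11, adjusted p = 0.129) between layer classes and by 0.53 (SE 0.26, adjusted p = 0.836) with magnocellular deprivation. NRCAM was dim, with a mean signal of 35.3, and differed by -1.18 (SE 0.53, adjusted p = 0.256) between layer classes.

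Of the JNK kinases and scaffolds, 6 tested of 7, MAPK10, the neuronal JNK, was lower in deprived parvocellular layers. Its log2 difference was -0.48 (SE 0.09, adjusted p = 0.018 from limma), with means of 4941 in deprived and 6886 in nondeprived layers. MAPK13, a p38 kinase, was higher in parvocellular than magnocellular layers by 1.20 (SE 0.16, adjusted p = 3.28e-05). Over all probe sets 0.97% were called with parvocellular deprivation, 3.6% between layer classes and 0% with magnocellular deprivation. No gene of the list passed with magnocellular deprivation, where MAPK10 differed by -0.36 (SE 0.27, adjusted p = 0.851) and MAPK8IP2, the scaffold bound by intracellular factors, by -0.40 (SE 0.40, adjusted p = 0.876). The list's medians were -0.09 with parvocellular and -0.15 with magnocellular deprivation and 0.12 between layer classes.

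The secreted fibroblast growth factors had 8 tested genes of 18, and FGF receptors with their coreceptors 4 of 7. FGF9 was lower in parvocellular layers, at -0.39 (SE 0.10, adjusted p = 0.0347), and was the 1 gene of both lists to pass in any of the 3 comparisons, in which 3.6% (layer class), 0.97% (parvocellular deprivation) and 0% (magnocellular deprivation) of all probe sets were called. FGF18 differed between layer classes by 0.46 (SE 0.17, adjusted p = 0.154). With parvocellular deprivation FGF5 differed by -0.37 (SE 0.19, adjusted p = 0.481), and FGFR3, a receptor found on astrocytes, by 0.14 (SE 0.09, adjusted p = 0.642). In magnocellular layers FGFR3 differed with deprivation by 0.44 (SE 0.23, adjusted p = 0.836), and between layer classes by -0.23 (SE 0.08, adjusted p = 0.147).

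Between deprived and nondeprived parvocellular layers, in which FGF11 and FGF13 were compared, 0.97% of all probe sets were called. Nothing is read from counts of calls in marker lists this short. Of the cell type markers, GFAP alone passed in that comparison. This astrocyte filament gene, 1 of 6 tested astrocyte markers, was higher in deprived parvocellular layers by 1.07 (SE 0.21, adjusted p = 0.0184), and the summed astrocyte markers ran from 34248 to 67812 in parvocellular layers with deprivation and from 35198 to 51956 in those without. None of 5 neuron markers passed with deprivation, and their sum ran from 77683 to 104002 with deprivation and from 83611 to 115767 without it. In magnocellular arrays the astrocyte sum read 44900 to 69521 in deprived and 33360 to 60297 in nondeprived layers. The median GAPDH ratio was 5.08 in deprived and 4.74 in nondeprived parvocellular arrays, and with it as a covariate the difference with deprivation was -1.70 (SE 0.16) for FGF11 and 0.61 (SE 0.18) for FGF13. Magnocellular arrays were less alike, with a median ratio of 8.11 in deprived and 4.36 in nondeprived layers. The magnocellular alternatives, the GAPDH covariate among them, ran from -1.05 to -0.60 for FGF11 and from 0.34 to 0.83 for FGF13. Of the other marker lists, 8 microglia, 2 oligodendrocyte, 2 oligodendrocyte precursor, 4 vascular, 2 blood and 2 relay neuron markers were tested, and none passed in the comparisons of deprivation or layer class. Over all probe sets 0% were called with magnocellular deprivation and 3.6% between layer classes. The part of astrocytes in the FGF11 and FGF13 differences was not tested.

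Between layer classes 3.6% of all probe sets were called, and nothing is read from counts of calls in these short lists. NEFH, a neurofilament of large neurons, was lower in parvocellular layers at -0.66 (SE 0.13, adjusted p = 0.00229 from limma). It was the 1 of 5 neuron markers to pass. Of the others, TUBB3 (-0.20, SE 0.10) and UCHL1 (-0.12, SE 0.10) had the same sign, and ENO2 (0.25, SE 0.16) and SYT1 (0.05, SE 0.09) the opposite sign. GAD1, which makes GABA in interneurons, was lower at -0.56 (SE 0.11, adjusted p = 0.00213), the 1 of 3 markers of GABAergic neurons to pass. GAD2 had the opposite sign at 0.40 (SE 0.22, adjusted p = 0.376 from limma), and NPY, which was dim, differed by -0.84 (SE 0.73). The summed neuron markers read 77683 to 115767 in parvocellular and 88476 to 135593 in magnocellular arrays, and the summed GABAergic markers 9323 to 16914 and 14416 to 24568. The single koniocellular marker with a probe set read at most 175 in any array. The part of these cells in the FGF11 difference between layer classes was not tested.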

How the data were processed

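The deposited values are GCOS signals, a linear signal intensity per probe set and array that the authors scaled; the software is named in the submitters' processing notes, and the trimmed mean (2% at each end) of every array is 500.04. Gene symbols came from the platform annotation, which can be old: 24956 probe sets carried 1 symbol, 361 more than 1 and 27449 no symbol. The 99 control probe sets were left out. The labels gave each sample's layer number, LGN, duration and deprivation status; which numbers are magnocellular and which parvocellular follows LGN anatomy.

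Signals under 1 were set to 1 before log2, and the 37623 probe sets that reached 100 on any of the 24 arrays were tested. Comparisons were made in R 4.3.3 with limma 3.58.1 (lmFit, then eBayes with trend = TRUE), with the LGN as a fixed block and adjustment by Benjamini and Hochberg over all probe sets tested; the threshold was 0.05. The code was tested on simulated data. Parvocellular deprivation used 16 arrays, magnocellular deprivation 8 and the layer class comparison 24. A gene of a list was represented by its brightest probe set.

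The members, the lists (115 genes in 15 lists) and the comparisons were chosen with earlier results of these data known. Named genes are all members; of the lists without cell markers, genes past the threshold and otherwise up to 2 genes with the smallest p per comparison; and by correlation the 5 most alike and 2 most opposed genes per member. Alternatives were quantile normalization, median scaling, a pseudocount of 16, a floor of 50, a filter on the mean signal (100), all probe sets without a filter, eBayes without the trend, no block, the layer number as replicate block, the GAPDH ratio as a covariate, each animal alone, deprived or nondeprived layers alone and each array left out. No sequence of the genes or probes was used here, and presence calls were not used here.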

Additional observations from a re-analysis of the deposited data

Results flagged for a closer look

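In 4 of the 40 sets of arrays examined (each of the 10 probe sets in each of the 4 groups) the highest array was far from the others of its group. The rule used has a nominal rate of about 0.05 for normally distributed values. Linear signals need not be so distributed and the sets share arrays, so nothing is read from the count. All 4 were dim or middling probe sets in parvocellular layers, and none was a brightest probe set of its gene. The dimmer FGF11 probe set (MmugDNA.21658.1.S1_at) read 376 at 2 months in layer 4 (deprived, contralateral), with the next array at 145, and 432 in layer 3 (nondeprived) of that LGN, with the next array at 155. The median signal of all probe sets was 111 on that layer 4 array and 112 on that layer 3 array. These were the highest medians after the array that stood apart. A dim FGF12 probe set (MmugDNA.11416.1.S1_at) read 1165 at 4 months in layer 4 (deprived, contralateral), with the next array at 476. On the same array the dimmest FGF14 probe set (MmugDNA.26971.1.S1_at) read 558, with the next at 233.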

How the results depend on the processing

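FGF11 kept its direction in all alternatives and with each array left out: with parvocellular deprivation -1.91 to -1.61 (one array left out, -1.83 to -1.65), and between layer classes -2.27 in deprived layers alone to -1.28 in nondeprived layers alone (one array left out, -1.84 to -1.71). FGF13 with parvocellular deprivation ran from 0.43 to 0.98. The number of member probe sets called between layer classes was 1 in each animal alone and in nondeprived or deprived layers alone, and 1 to 4 with one array left out; the FGF14 call was lost in each animal alone (0.79 and 0.98) and in nondeprived or deprived layers alone (both 0.88). Directions turned for the brightest FGF12 probe set with the GAPDH ratio as covariate (0.10 with magnocellular deprivation, -0.17 between classes) and at 4 months alone (-0.43 between classes), and with one array left out (-0.59 to 0.13 and -0.18 to 0.25). They also turned for the brightest FGF14 probe set with magnocellular deprivation at 4 months alone (0.31; one array left out, -0.44 to 0.094, the highest without either magnocellular array of the ipsilateral LGN at 2 months, which holds the array that stood apart), for FGF11 between outer and inner layers after median scaling (0.13), and for its deprivation effect between outer and inner layers after quantile normalization (0.037; one array left out, -0.26 to 0.18). With one array left out, magnocellular deprivation also turned its sign for the dim FGF11 (highest 0.12), the dimmest FGF12 (lowest -0.018) and the other 3 FGF14 probe sets. The causes were not tested. With the layer number as replicate block in place of the LGN, FGF11 was at -1.76 (SE 0.14) and FGF13 at 0.70 (SE 0.16) in parvocellular layers, and no member was called in magnocellular layers; 133 probe sets were called in parvocellular layers. Deviations of parvocellular layers with the same number in an animal's left and right LGN correlated at -0.195 to 0.0837. In magnocellular layers the value was 0.305 at 2 months and 0.0507 at 4 months. LGN means were not removed from these deviations, which can lower the correlations, so whether layer numbers pair the samples was not settled. The layer number block could not be fitted between layer classes or between outer and inner layers. Over all probe sets, the 365 calls of parvocellular deprivation were 34 after median scaling, 598 with the mean filter, 15 without trend, 28 without the LGN block, 7 and 1 in the animals alone and 136 to 457 with one array left out. Magnocellular deprivation had 0 to 46, and layer classes 1355 against 828 after median scaling, 624 without the LGN block, 222 and 368 in the animals alone, 469 and 86 in nondeprived and deprived layers alone and 960 to 1872 with one array left out. The sodium channel median between classes was -0.42 with all probe sets of a gene. Median scaling moved the median of all probe sets by -0.31 with magnocellular deprivation, 0.13 between classes and 0.29 between outer and inner layers. Signals near 100 are close to the filter, so that the dim probe sets of FGF11 and FGF14 have little signal over background.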
